A study of Mus musculus with 11 samples.

Results

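The 31 genes described here are regulators of multiciliated cell formation and parts of the motile cilium. As a list they stand for ciliated cells among thymic mimetic cells, though some, such as Myb, are also expressed by other cells. The 31 genes were chosen by name, from a list of 31 mouse symbols, and all 31 were found among the 56691 genes of the count table. For description they were divided into 8 regulators (Foxj1, Trp73, Gmnc, Mcidas, Myb, Ccno, Rfx2 and Rfx3) and 23 structural or assembly genes.

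Medullary thymic epithelial cells express genes of many peripheral tissues and show the proteins to developing T cells, and Aire drives much of that expression. Some of these cells take on programs of other cell types, guided by the lineage factors of those types, and are called mimetic cells. In ciliated epithelium the coiled-coil proteins GMNC and MCIDAS start centriole amplification, FOXJ1 and RFX factors switch on genes of the axoneme, and dynein arms move the doublet microtubules while nexin links, radial spokes and the central pair shape the beat.

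RNA was sequenced from sorted thymic epithelial cells of NOD mice, a strain prone to autoimmune diabetes, aged 4 to 8 weeks. The groups were 3 libraries with the R249C variant of Aire on both alleles (R249C/R249C), 5 with it on 1 allele (WT/R249C) and 3 without it (WT/WT). R249C is a missense change in Aire, and the sources used here do not say how the allele was made. CD45-bearing cells were removed with magnetic beads and the remaining cells were sorted for EpCAM, so every group holds bulk epithelium and not isolated ciliated cells. All 3 R249C/R249C libraries, WT/R249C replicates 1, 2 and 3 and WT/WT replicate 1 were in the batch labelled A. WT/R249C replicates 4 and 5 and WT/WT replicates 2 and 3 were in batch B. For WT/R249C replicates 4 and 5 title and genotype field contradict each other, the field giving R249C/R249C. The title decided their group here, and results without them are given where they differ. The titles call the libraries biological replicates, but the number of mice behind each is not stated, so p-values measure the spread between these libraries.

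Library totals ran from 60560348 to 182319976 counts. Levels are given in CPM, the counts of a gene scaled to a common library total. A count of 0 allows up to 0.0165 to 0.0495 CPM, depending on the library, by a floor of 3 counts that covers counting error only. Aire itself, the altered gene, averaged 603 ± 272 CPM in R249C/R249C (SD, n = 3), 518 ± 228 CPM in WT/R249C (SD, n = 5) and 490 ± 244 CPM in WT/WT (SD, n = 3). A missense change leaves the transcript countable, so these levels do not check the genotypes. Epithelial Epcam was at 355 to 521 CPM in all 11 libraries.

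The label of ciliated cells was only partly borne out by the markers. Foxj1 and the dynein heavy chain Dnah9 had counts in every library, but Cfap52, an axonemal WD-repeat protein, was at 0 in 9 of 11 libraries and the apical cilium protein Sntn was at 0 in 5. In all, 23 of the 31 genes averaged under 5 CPM over the 11 libraries and 6 averaged under 1 CPM. Per kilobase of exon the highest mean levels were those of the tubulin polymerization-promoting gene Tppp3 (8.40 CPM per kb), Foxj1 (6.81), the tektin Tekt2 (4.76) and Trp73 (4.42). The lowest were Cfap52 (0.0173 CPM per kb) and Gmnc (0.0688). In bulk libraries fewer cells of a type and less RNA per cell cannot be told apart.

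Only 8 of the 31 genes had counts in every library. These were the regulators Foxj1, Trp73, Rfx2 and Myb and the structural genes Dnah9, Tekt2, Rsph1 and Hydin. The number of the 31 genes with counts was 27, 22 and 24 in R249C/R249C replicates 1 to 3, 30, 27, 15, 26 and 16 in WT/R249C replicates 1 to 5, and 23, 19 and 28 in WT/WT replicates 1 to 3. WT/R249C replicates 3 and 5 were thus the sparsest, and the range of WT/R249C enclosed those of both other genotypes. The same 2 libraries were sparse over the transcriptome, since 15.7% and 10.9% of all genes with a mean of at least 1 CPM were at 0 in them, against 1.11% to 7.14% in the other 9. They stood at 60560348 and 83119070 counts, the lowest totals. With every library thinned at random to the smallest total, the number of the 31 genes with counts stayed the same in each. It remained 15 in WT/R249C replicate 3, which has the smallest total itself, and 16 in WT/R249C replicate 5. Nearly all nonzero counts of these genes were 10 or more, and such thinning could hardly turn them to 0. The outcome was thus nearly fixed in advance and does not bear on depth. What gave rise to these zeros was not tested. Without those 2 libraries 13 of the 31 genes had counts in every library. Among genes with a mean of 1 to 10 CPM, 16 of 20 ciliated genes (80.0%) were at 0 in at least 1 library, beside 57.5% of 7642 genes of that mean range. Levels within the range were not matched, so these shares do not compare genes of equal level.

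**Figure D1:**
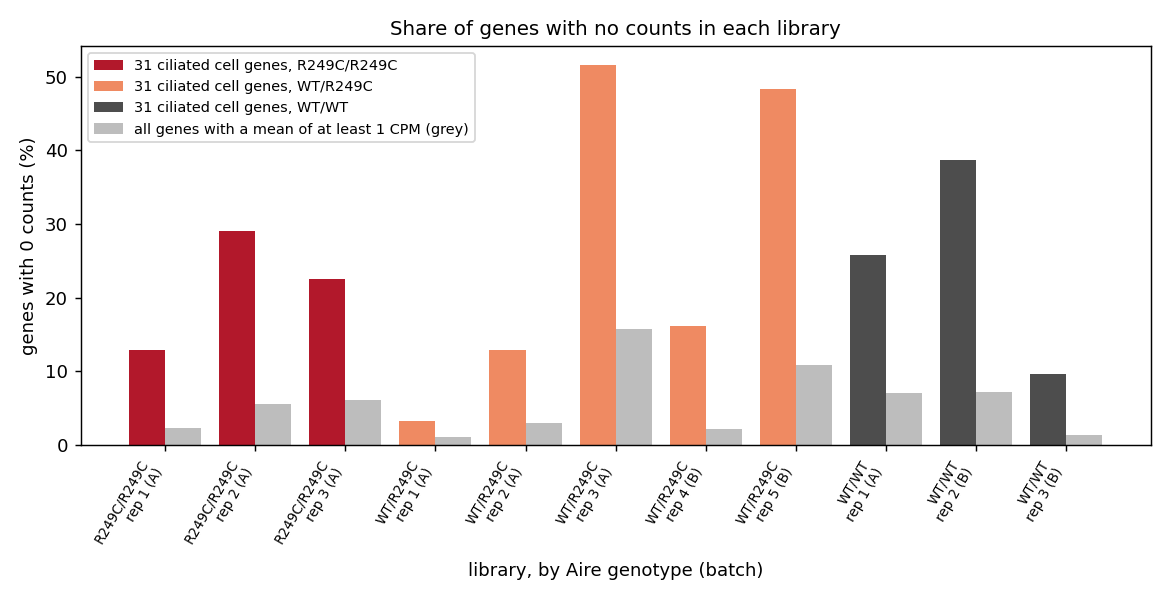
Share of genes with 0 counts in each of the 11 libraries, as a percentage of the 31 ciliated cell genes (coloured by Aire genotype) and of all genes with a mean of at least 1 CPM (grey). The coloured share includes 6 genes with a mean under 1 CPM, which the grey share leaves out, so their heights are not on equal terms. The tallest coloured bars are WT/R249C replicates 3 and 5, with 16 and 15 of 31 genes at 0, and the shortest is WT/R249C replicate 1 with 1 gene at 0.

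**Figure D2:**
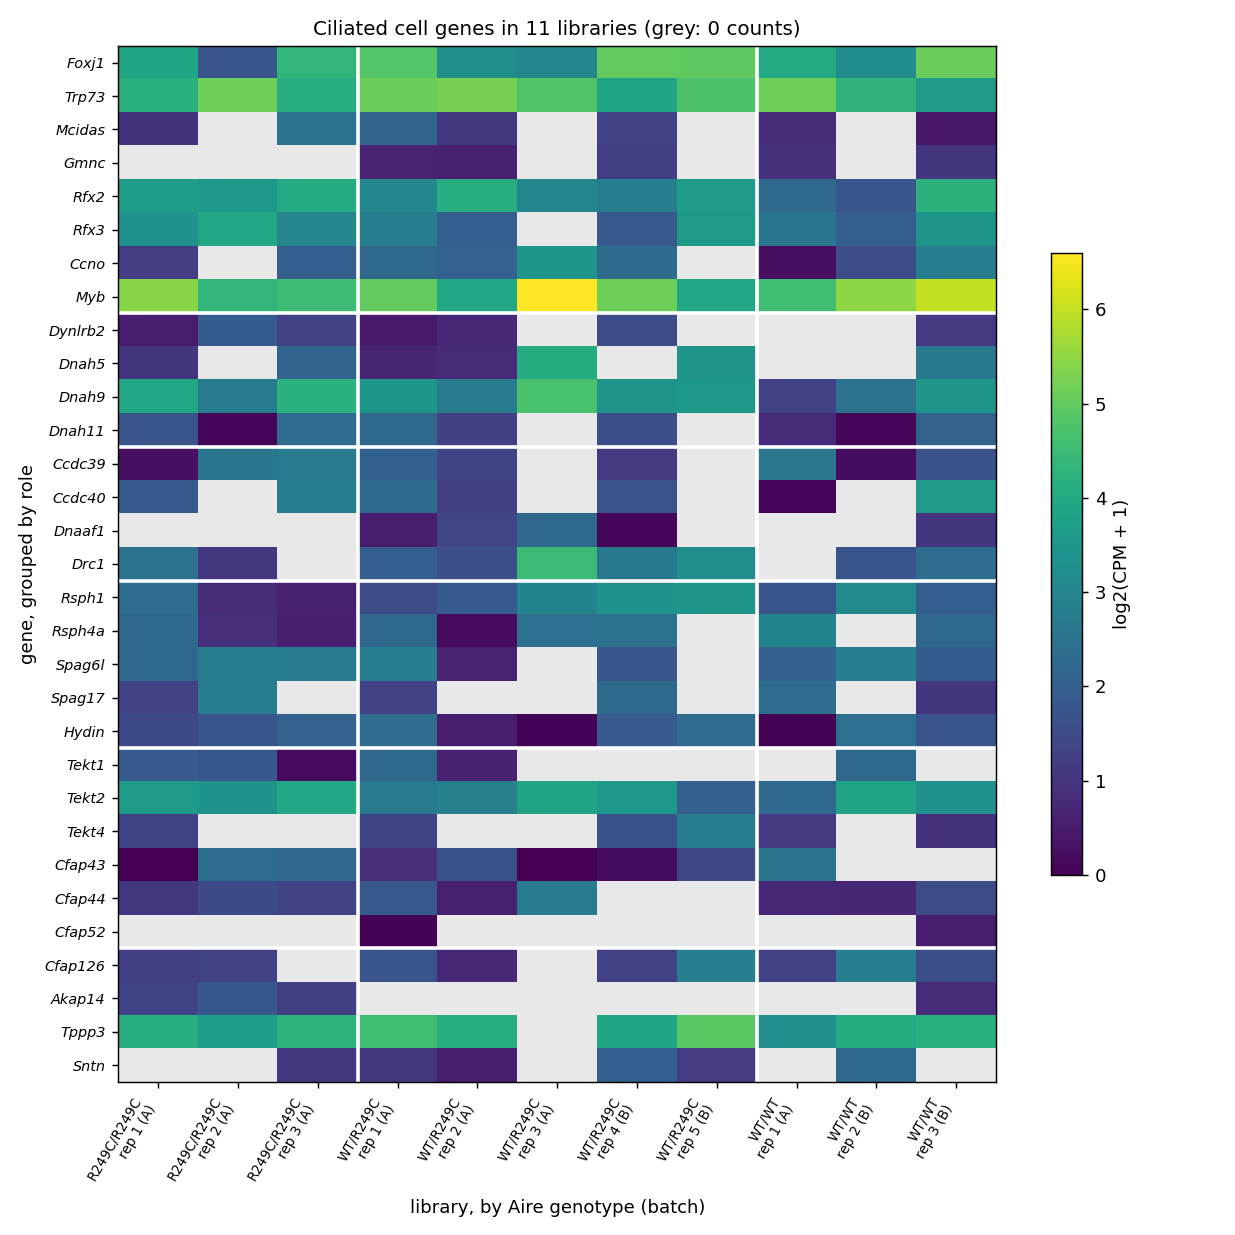
Levels of the 31 ciliated cell genes as log2(CPM + 1) in 11 libraries, with genes in rows by role and libraries in columns by Aire genotype and batch, and grey cells for 0 counts. Foxj1, Trp73, Rfx2, Myb, Dnah9, Tekt2, Rsph1 and Hydin have counts in all 11 columns, and of the 23 structural genes 9 have a zero in R249C/R249C, 17 in WT/R249C and 13 in WT/WT, with 7 of them at 0 somewhere in all 3 genotypes.

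Foxj1, the forkhead factor that activates motile cilium genes, was at 13.9, 2.31 and 19.4 CPM in R249C/R249C, at 27.3, 8.57, 7.18, 30.97 and 30.4 CPM in WT/R249C and at 15.4, 8.05 and 32.9 CPM in WT/WT. The groups overlapped, and R249C/R249C replicate 2 had the lowest value of all. Trp73, the p53-family factor that acts upstream of Foxj1 in multiciliated cells, was at 17.7, 34.0 and 16.2 CPM in R249C/R249C, at 33.2, 36.6, 27.2, 14.1 and 26.0 CPM in WT/R249C and at 34.2, 18.5 and 11.4 CPM in WT/WT. Trp73 was steadier than Foxj1, spanning 11.4 to 36.6 CPM beside 2.31 to 32.9 CPM. In WT/WT the library lowest in Trp73 was highest in Foxj1.

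The early regulators were at 0 in some libraries and at 0.199 to 10.1 CPM in the others. Gmnc was at 0 in all 3 R249C/R249C libraries, at 0.577, 0.498, 0, 1.32 and 0 CPM in WT/R249C and at 0.928, 0 and 1.03 CPM in WT/WT. The zero libraries thus included members of every genotype. Mcidas was at 0.970, 0 and 4.67 CPM in R249C/R249C, at 3.34, 1.11, 0, 1.44 and 0 CPM in WT/R249C and at 0.748, 0 and 0.356 CPM in WT/WT, with at least 1 zero in each genotype. Ccno, which acts in centriole amplification, had 1.29, 0 and 2.93 CPM in R249C/R249C, 3.70, 3.23, 10.1, 4.07 and 0 CPM in WT/R249C and 0.199, 1.97 and 6.12 CPM in WT/WT. Within batch A every WT/R249C value of Ccno lay above every R249C/R249C value, but WT/R249C replicate 5 of batch B was at 0.

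Myb, a factor of early multiciliated cells that thymocytes also express, had counts in every library. It was at 41.6, 19.2 and 22.1 CPM in R249C/R249C, at 30.97, 14.3, 95.7, 34.3 and 14.2 CPM in WT/R249C and at 22.8, 43.4 and 63.6 CPM in WT/WT. WT/R249C replicate 3 stood far above its group. In that library the thymocyte genes Rag1 (37.1 CPM), Themis (37.0), Dntt (27.2) and Cd3e (25.3) were also at their highest of all 11 libraries, and 8 of 14 thymocyte markers were highest there among the WT/R249C libraries. Of the other markers Cd4, Cd8a and Rag2 were at 0 there, Cd3g was at 5.09 CPM, the lowest of all 11 libraries, and the leukocyte gene Ptprc was at 0.248 CPM, against 6.95 to 26.2 CPM in the libraries other than WT/R249C replicates 3 and 5. The summed level of the 14 markers was 159 to 284 CPM in R249C/R249C, 138 to 348 CPM in WT/R249C and 254 to 419 CPM in WT/WT. At most 5 of the 14 were at 0 in any library, in WT/R249C replicate 5, and the highest sum was in WT/WT replicate 1, where Myb was at 22.8 CPM. The part of thymocyte RNA in the Myb level was not tested.

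The RFX factors bind the X-box of ciliary promoters. Rfx2 was at 11.7, 10.48 and 15.2 CPM in R249C/R249C, at 7.32, 16.2, 7.30, 6.11 and 11.5 CPM in WT/R249C and at 3.71, 2.37 and 17.97 CPM in WT/WT. Rfx3 was at 9.15, 14.4 and 7.03 CPM in R249C/R249C, at 5.76, 2.89, 0, 2.59 and 10.97 CPM in WT/R249C and at 4.95, 2.96 and 9.59 CPM in WT/WT. For Rfx3 the R249C/R249C libraries lay above the 3 WT/R249C libraries of batch A, while WT/R249C replicate 5 and WT/WT replicate 3 fell within their range. The summed level of all 8 regulators was 96.3, 80.3 and 87.6 CPM in R249C/R249C, 112, 83.3, 147, 94.8 and 93.1 CPM in WT/R249C and 83.0, 77.2 and 143 CPM in WT/WT. Myb and Trp73, with means of 36.6 and 24.4 CPM over the 11 libraries, weighed most in these sums. Myb alone gave 95.7 of the 147 CPM in WT/R249C replicate 3 and 63.6 of the 143 CPM in WT/WT replicate 3.

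Because both factor families are among the 31 genes, promoter windows were searched for their binding motifs on both strands. RefSeq windows of build GRCm38.p6, from 250 bases before to 50 bases after a gene's start, were held for 26 of the 31 genes. Foxj1, Dnaaf1, Rsph1, Rsph4a and Tppp3 were not among them. GTTGCC, the core bound by RFX factors, lay in 14 of 26 ciliated promoters (53.8%) and in 14.1% of 27025 genes' promoters. An inverted repeat of such cores, GTTNCC followed after 3 bases by GNAAC, lay in 3 of 26 (Tekt4, Cfap44 and Hydin) and in 0.936% of all promoters. The forkhead motif GTAAACA lay in 4 of 26 (Cfap43, Myb, Akap14 and Sntn, 15.4%) and in 4.05% of all. Its shorter form TAAACA, which every GTAAACA contains, lay in 7 of 26 (26.9%) and in 15.1% of all promoters.

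The 250 bases upstream of the start are shown for 4 genes, read along the gene's strand, to show how these motifs sit in ciliary promoters. Hydin (chr8:110266727-110266976, plus strand) and Cfap44 (chr16:44394549-44394798, plus strand) hold the RFX repeat, Sntn (chr14:13670626-13670875, plus strand) holds both an RFX core and a forkhead motif, and Akap14 (chrX:37168843-37169092, minus strand) holds a forkhead motif. Capitals mark the matches on either strand.
Hydin: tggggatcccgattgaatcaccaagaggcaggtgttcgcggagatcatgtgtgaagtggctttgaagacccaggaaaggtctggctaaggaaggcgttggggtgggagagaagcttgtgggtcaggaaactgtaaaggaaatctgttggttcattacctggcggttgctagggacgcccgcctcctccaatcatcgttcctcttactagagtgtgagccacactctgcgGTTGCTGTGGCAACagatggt
Cfap44: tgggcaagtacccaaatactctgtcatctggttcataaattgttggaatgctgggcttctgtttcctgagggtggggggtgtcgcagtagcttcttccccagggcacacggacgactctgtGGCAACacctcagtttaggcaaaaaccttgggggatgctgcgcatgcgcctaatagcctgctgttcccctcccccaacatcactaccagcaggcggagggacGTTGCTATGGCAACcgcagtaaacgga
Sntn: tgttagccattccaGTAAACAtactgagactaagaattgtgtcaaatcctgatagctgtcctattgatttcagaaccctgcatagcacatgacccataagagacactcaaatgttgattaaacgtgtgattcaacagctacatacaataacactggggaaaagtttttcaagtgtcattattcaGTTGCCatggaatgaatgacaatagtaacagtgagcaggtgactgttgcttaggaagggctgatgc
Akap14: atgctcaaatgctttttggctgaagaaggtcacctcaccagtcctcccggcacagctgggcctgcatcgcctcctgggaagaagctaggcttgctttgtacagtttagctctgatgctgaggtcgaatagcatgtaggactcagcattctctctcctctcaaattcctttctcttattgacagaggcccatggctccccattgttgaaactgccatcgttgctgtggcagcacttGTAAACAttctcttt
The RFX repeat lies 21 to 8 bases before the start in Hydin and 27 to 14 bases before it in Cfap44. In Akap14 the forkhead motif lies 15 to 9 bases before the start. These are matches of letters, and binding was not measured.

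Among the dynein motor genes only the outer-arm heavy chain Dnah9 had counts in every library. It was at 14.4, 5.49 and 17.4 CPM in R249C/R249C, at 10.3, 5.58, 25.0, 9.74 and 10.4 CPM in WT/R249C and at 1.46, 4.54 and 9.92 CPM in WT/WT. WT/WT replicate 1 was the lowest library, but the groups overlapped. Dnah5, the other outer-arm heavy chain of the list beside Dnah11, was at 1.04, 0 and 3.39 CPM in R249C/R249C, at 0.605, 0.751, 15.6, 0 and 9.59 CPM in WT/R249C and at 0, 0 and 5.33 CPM in WT/WT. Its highest values were in WT/R249C replicates 3 and 5, the 2 libraries with most ciliated genes at 0. Dnah11 ranged from 0 to 4.09 CPM, with zeros in these same 2 libraries. The dynein light chain Dynlrb2 ranged from 0 to 2.80 CPM. Its widely expressed paralog Dynlrb1 was at 116 to 156 CPM, and none of the 50-base words of Dynlrb2 transcripts was found in those of another gene.

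Genes for docking, assembly and nexin links were mostly below 6 CPM. Ccdc39 was at 0.205, 4.90 and 5.51 CPM in R249C/R249C, at 3.16, 1.54, 0, 1.18 and 0 CPM in WT/R249C and at 5.10, 0.170 and 2.12 CPM in WT/WT. Ccdc40, its partner in the ruler that spaces inner arms, was at 2.68, 0 and 5.80 CPM in R249C/R249C, at 3.98, 1.36, 0, 2.21 and 0 CPM in WT/R249C and at 0.0757, 0 and 10.7 CPM in WT/WT. The partners did not share all their zeros, since R249C/R249C replicate 2 had 4.90 CPM of Ccdc39 and no Ccdc40. Drc1, of the nexin-dynein regulatory complex, was at 4.57, 1.08 and 0 CPM in R249C/R249C, at 2.89, 2.03, 21.4, 5.33 and 8.59 CPM in WT/R249C and at 0, 2.28 and 4.09 CPM in WT/WT.

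Dnaaf1, a dynein arm assembly factor, was at 0 in all 3 R249C/R249C libraries, at 0.408, 1.59, 3.62, 0.0929 and 0 CPM in WT/R249C and at 0, 0 and 0.993 CPM in WT/WT. Thus 4 of 5 WT/R249C libraries and 1 of 3 WT/WT libraries had counts. In the GENCODE M21 annotation 20.7% of the exon bases of Dnaaf1 lie under Taf1c, on the opposite strand. For Ccdc39 16.9% lie under Ttc14, and Spag17 and Tekt2 also have over 10% of their 50-base words in transcripts of other genes. The sources used here do not say whether counting used strand, so reads of these 4 genes may be shared with their neighbours.

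Radial spoke and central pair genes varied as widely. The spoke protein Rsph1 was at 4.10, 0.735 and 0.533 CPM in R249C/R249C, at 1.89, 2.70, 6.90, 9.26 and 9.59 CPM in WT/R249C and at 2.29, 7.76 and 2.95 CPM in WT/WT. Its lowest values were R249C/R249C replicates 2 and 3, but replicate 1 lay within both other groups. Rsph4a, of the spoke head, ranged from 0 to 6.80 CPM, with the highest value in WT/WT replicate 1. Hydin, of the central pair, was at 1.75, 2.40 and 3.22 CPM in R249C/R249C, at 4.23, 0.439, 0.0495, 2.69 and 4.11 CPM in WT/R249C and at 0.0189, 4.27 and 2.30 CPM in WT/WT, the tightest spread being in R249C/R249C. Spag6l and Spag17, also of the central pair, ranged from 0 to 6.12 CPM and from 0 to 5.78 CPM. Spag6, the paralog of Spag6l, was at 0 to 2.33 CPM and holds 0.391% of the 50-base words of Spag6l transcripts.

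Tektins line the doublet microtubules. Tekt2 was at 11.2, 9.46 and 14.4 CPM in R249C/R249C, at 5.51, 6.30, 13.4, 10.4 and 3.04 CPM in WT/R249C and at 3.78, 12.9 and 9.08 CPM in WT/WT, and the groups overlapped. Tekt1 was at 2.70, 2.48 and 0.152 CPM in R249C/R249C, at 3.59, 0.515, 0, 0 and 0 CPM in WT/R249C and at 0, 3.73 and 0 CPM in WT/WT. All 3 R249C/R249C libraries had Tekt1 counts, as did 2 of 5 WT/R249C and 1 of 3 WT/WT libraries. Tekt4 was at 0 in 5 of the 11 libraries and reached 5.80 CPM in WT/R249C replicate 5. The cilia- and flagella-associated genes Cfap43, Cfap44 and Cfap126 ranged from 0 to 4.83, 5.43 and 6.10 CPM.

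Akap14, an anchor protein of protein kinase A found in cilia, was at 1.52, 2.53 and 1.38 CPM in R249C/R249C, at 0 in all 5 WT/R249C libraries and at 0, 0 and 0.773 CPM in WT/WT. Its R249C/R249C libraries all lay above every library of both other genotypes, as did those of 94 of 26980 genes tested (0.348%). Tppp3 was at 16.8, 11.99 and 18.2 CPM in R249C/R249C, at 22.8, 16.4, 0, 14.0 and 28.8 CPM in WT/R249C and at 8.52, 15.8 and 17.4 CPM in WT/WT. WT/R249C replicate 3 had no Tppp3 counts although every other library had at least 8.52 CPM. The summed level of the 23 structural genes was 76.5, 64.0 and 87.6 CPM in R249C/R249C, 82.6, 45.7, 95.7, 76.4 and 88.9 CPM in WT/R249C and 44.1, 67.9 and 82.9 CPM in WT/WT, and these ranges overlapped.

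**Figure D3:**
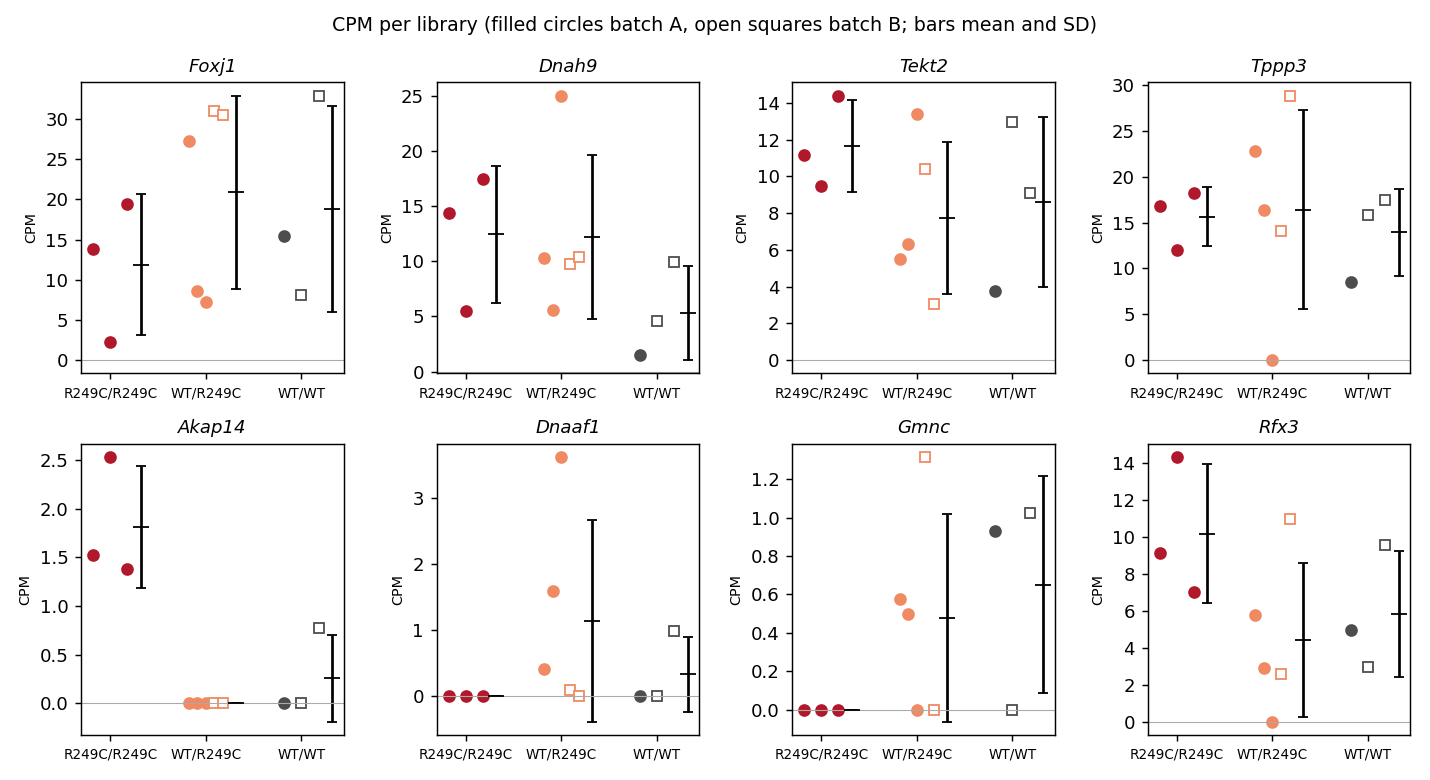
CPM of 8 ciliated cell genes in each library by Aire genotype, with filled circles for batch A, open squares for batch B and bars for the mean and SD of each genotype. Foxj1, Dnah9, Tekt2 and Tppp3 overlap between genotypes, Akap14 is above 1 CPM in the 3 R249C/R249C libraries alone, and Gmnc and Dnaaf1 are at 0 in R249C/R249C and in some libraries of each other genotype.

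Whether the homozygous variant altered ciliated genes was asked by comparing R249C/R249C with WT/WT. No ciliated gene passed the edgeR quasi-likelihood test (adjusted p under 0.05) among the 30 tested, Cfap52 having been filtered out, and 0% of 26980 genes did. At an unadjusted p under 0.05 the count was 0 of 30 ciliated genes, beside 3.21% of all genes. Limma voom also called 0 genes, while 1105 genes (4.1%) had an unadjusted p under 0.05 with it. Fitted log2 fold changes were positive for 18 and negative for 12 genes. Their median was 0.45, beside -0.02 over all genes tested. With each library left out in turn it spanned -0.18 to 0.72. It was -0.07 without R249C/R249C replicate 3, -0.18 without WT/R249C replicate 4 and -0.08 without WT/WT replicate 1. Within batch A it was 1.10 and without the contested libraries 1.09, beside 0.20 over all genes in each. The groups did not overlap for 1 of 30 genes, Akap14, beside 8.1% of all genes, of which 3.42% were higher and 4.68% lower in R249C/R249C. Most fits were imprecise, and the 95% interval was wider than 4 log2 units for 28 of 30 genes.

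Foxj1 averaged 11.9 ± 8.74 CPM in R249C/R249C and 18.8 ± 12.8 CPM in WT/WT (SD, n = 3 each). Its batch-adjusted log2 fold change was -0.07 ± 0.94 (SE, edgeR adjusted p = 1), with a 95% interval from -2.21 to 2.07, and within batch A, where WT/WT has a single library, it was -0.37. Without R249C/R249C replicate 2, the library lowest in Foxj1, it was 0.43. For Trp73 the log2 fold change was -0.38 ± 0.44 (SE, edgeR adjusted p = 1), and without the batch term 0.10. Akap14 averaged 1.81 ± 0.628 CPM in R249C/R249C and 0.258 ± 0.447 CPM in WT/WT (SD, n = 3 each), with a fitted log2 fold change of 6.45 ± 3.26 (SE, edgeR adjusted p = 1). When the libraries of contested genotype were counted as R249C/R249C the Akap14 estimate was -5.69.

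Gmnc, at 0 in R249C/R249C and 0.651 ± 0.566 CPM in WT/WT, was at least 66.8-fold lower, taking 3 counts summed over the group as its floor (edgeR adjusted p = 1). Such bounds, here and below, cover counting error only and leave out the spread between libraries. For Gmnc the 95% interval of the fitted log2 fold change ran from -18.4 to 0.17, and WT/WT replicate 2 was also at 0. Dnaaf1, at 0 in R249C/R249C and 0.331 ± 0.573 CPM in WT/WT, was at least 34.0-fold lower (edgeR adjusted p = 1). That bound rested on WT/WT replicate 3 alone, since the other 2 WT/WT libraries were also at 0. With WT/R249C replicate 4, of contested genotype, counted as R249C/R249C, neither bound holds. Gmnc was at 1.32 CPM and Dnaaf1 at 0.0929 CPM in that library. Cfap44 averaged 1.46 ± 0.347 CPM in R249C/R249C and 1.06 ± 0.728 CPM in WT/WT, yet its batch-adjusted log2 fold change was -7.70 ± 4.08 (SE, edgeR adjusted p = 1). It was 0.51 without the batch term, 1.15 within batch A and 0.48 with limma voom, so its direction changed with the model and the libraries fitted. DESeq2 called 1.51% of all genes, among them Dnaaf1 (adjusted p = 8.12e-07), Gmnc (adjusted p = 5.14e-05) and Cfap44 (adjusted p = 0.0127).

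WT/R249C was set against WT/WT to ask about a single variant allele. Here 0 of 30 ciliated genes passed the edgeR test, as did 0% of 26980 genes. At an unadjusted p under 0.05 there were again 0 ciliated genes, beside 3.48% of all genes. Limma voom called 0 genes, with 1518 (5.63%) at an unadjusted p under 0.05. Fitted log2 fold changes were positive for 17 and negative for 13 genes, with a median of 0.12 beside 0.02 over all genes. With each library left out in turn that median spanned -0.19 to 0.43. It was -0.19 without WT/R249C replicate 1 and -0.07 without WT/R249C replicate 4. Within batch A it was 0.98, beside 0.40 over all genes, and without the contested libraries 0.98, beside 0.28. In 0 of 30 genes did the groups separate without overlap, beside 2.93% of all genes, of which 1.1% were higher and 1.83% lower in WT/R249C. This comparison shares its WT/WT libraries with the preceding one.

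Foxj1 averaged 20.9 ± 11.97 CPM in WT/R249C (SD, n = 5) and 18.8 ± 12.8 CPM in WT/WT (SD, n = 3), a log2 fold change of 0.31 ± 0.77 (SE, edgeR adjusted p = 1). Within batch A it was -0.10 and within batch B, which rests on the contested libraries, 0.64. Dnah9 averaged 12.2 ± 7.43 CPM in WT/R249C and 5.31 ± 4.28 CPM in WT/WT, a log2 fold change of 1.45 ± 0.85 (SE, edgeR adjusted p = 1). It was 3.13 within batch A, 0.53 within batch B and 0.53 without WT/WT replicate 1. Trp73 had a log2 fold change of 0.20 ± 0.36 (SE, edgeR adjusted p = 1), -0.11 within batch A and 0.45 within batch B. Akap14 was at least 45.9-fold lower in WT/R249C, a bound that again rested on WT/WT replicate 3 (edgeR adjusted p = 1). The estimates for Cfap44 (-7.24 ± 3.83) and Tekt1 (-7.89 ± 7.01, SE, edgeR adjusted p = 1 for both) turned positive within batch A, at 2.02 and 10.20. DESeq2 called 1.02% of all genes and 1 ciliated gene, Cfap44 (adjusted p = 0.00391).

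Homozygous and heterozygous libraries were compared within batch A, 3 against 3. In R249C/R249C against WT/R249C 0 of 28 ciliated genes passed the edgeR test, Gmnc, Tekt4 and Cfap52 having been filtered out, and 0% of 23695 genes did. At an unadjusted p under 0.05 there were 2 of 28, Akap14 and Dnaaf1, beside 1.08% of all genes. Limma voom called 0 genes, with 714 (3.01%) at an unadjusted p under 0.05. Fitted log2 fold changes were positive for 15 and negative for 13 genes, with a median of 0.27 beside 0.01 over all genes. With each library left out in turn the median spanned -0.20 to 0.79. It was -0.20 without R249C/R249C replicate 3, -0.03 without WT/R249C replicate 2 and -0.14 without WT/R249C replicate 3. The groups did not overlap for 4 of 28 genes, beside 8.85% of all genes tested. Akap14 and Rfx3 were higher in R249C/R249C, beside 3.45% of all genes, and Dnaaf1 and Ccno were lower, beside 5.41% of all genes.

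Dnaaf1 was at 0 in R249C/R249C and 1.87 ± 1.62 CPM in the WT/R249C libraries of batch A (SD, n = 3 each), at least 192-fold lower (edgeR adjusted p = 1). Without WT/R249C replicate 3 the bound was 102-fold. Akap14 was at least 194-fold higher in R249C/R249C, since WT/R249C was at 0 (edgeR adjusted p = 1). DESeq2 called 0.131% of all genes, and both Akap14 (adjusted p = 0.00167) and Dnaaf1 (adjusted p = 0.0149) were among them. Foxj1 had a log2 fold change of -0.27 ± 0.93 and Trp73 one of -0.49 ± 0.39 (SE, edgeR adjusted p = 1 for both). Dynlrb2 averaged 1.58 ± 1.18 CPM in R249C/R249C and 0.348 ± 0.331 CPM in WT/R249C, and Tekt2 11.7 ± 2.502 CPM in R249C/R249C and 8.40 ± 4.34 CPM in WT/R249C. Their log2 fold changes were 2.14 ± 1.85 and 0.54 ± 0.53 (SE, edgeR adjusted p = 1 for both).

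**Figure D4:**
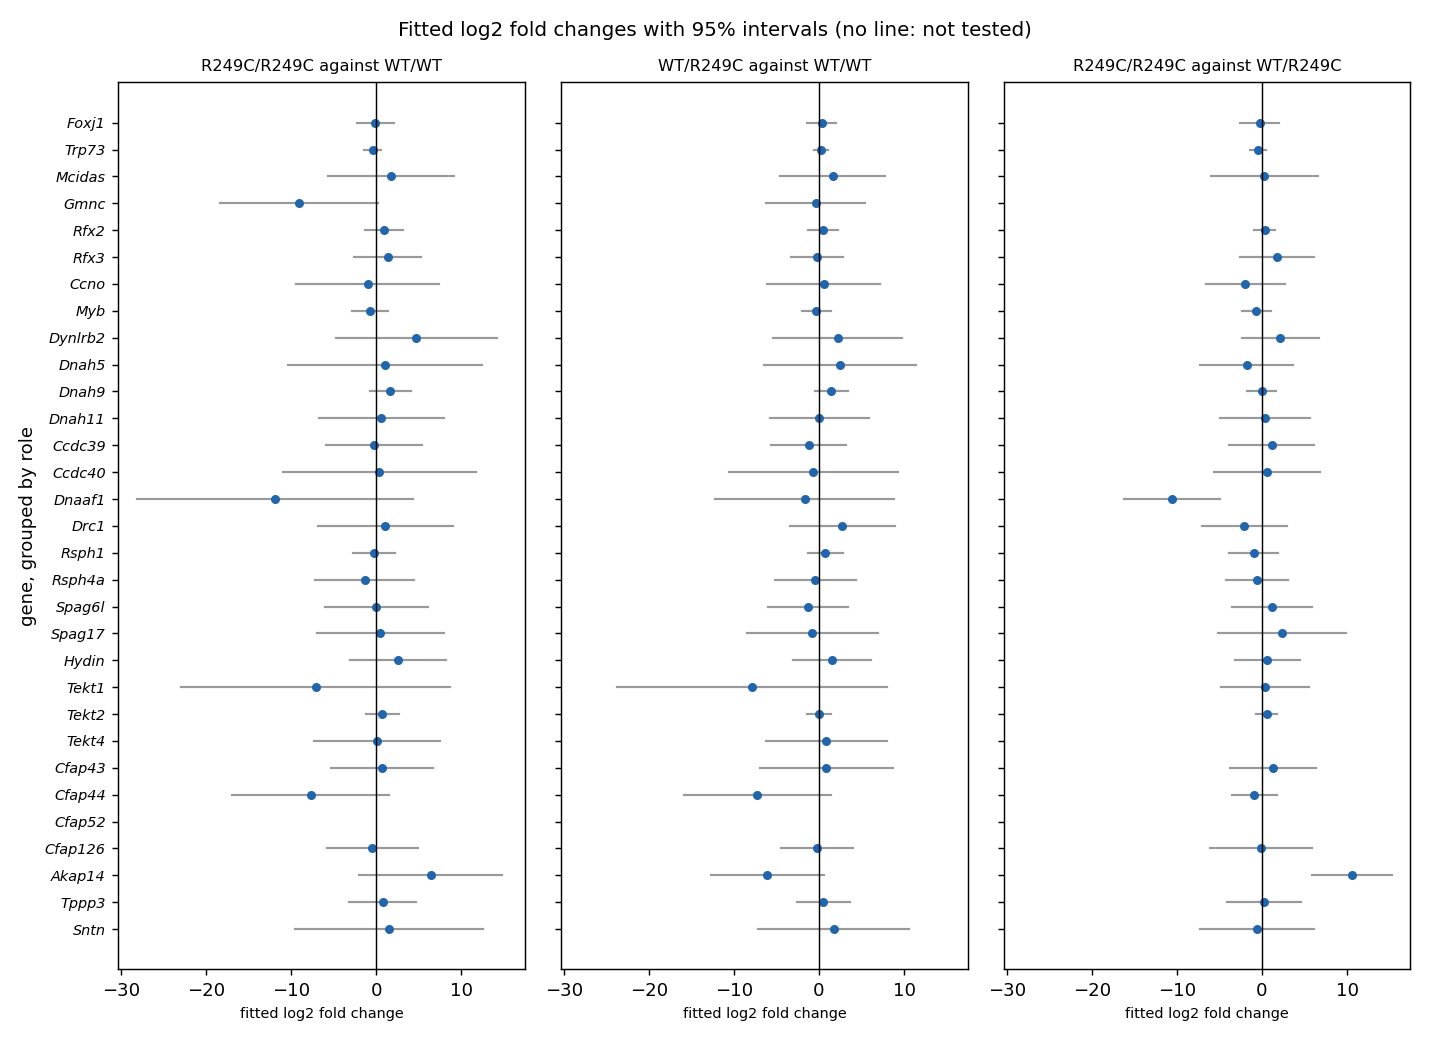
Fitted log2 fold changes of the ciliated cell genes (points) with 95% intervals (lines) in the 3 genotype comparisons, on a shared axis, with genes in rows by role. Intervals of most genes cross 0 and are several log2 units wide, while those of Trp73, Tekt2 and Foxj1 are among the narrower ones, and genes without a line were not tested.

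Whether the other ciliated genes followed Foxj1 from library to library was examined over the 11 libraries on log2(CPM + 1). Of 30 genes, 0 had a rank correlation past the threshold by permutation test with adjustment over the 30 (smallest adjusted p = 0.394), and 3 had an unadjusted p under 0.05. These were Tekt4, Gmnc and Ccdc40, and of all genes tested 2.93%, 4.28% and 4.30% had a rho with Foxj1 at least as high as theirs. Tekt4 had a Pearson r of 0.71 (permutation p = 0.0133) and a Spearman rho of 0.68 (permutation p = 0.0272, adjusted p = 0.394). Its r was 0.79 without the 2 libraries farthest from the Foxj1 median, and its rho was 0.51 within batch A. Ccdc40 had an r of 0.59 (permutation p = 0.0562) and a rho of 0.64 (permutation p = 0.0398, adjusted p = 0.394), with an r of 0.41 without those 2 libraries and a rho of 0.85 within batch A. Gmnc had an r of 0.52 (permutation p = 0.102) and a rho of 0.64 (permutation p = 0.0397, adjusted p = 0.394), with an r of 0.38 without the 2 libraries and a rho of 0.49 within batch A.

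Over the 30 genes rho with Foxj1 was positive for 22 (73.3%), with a median of 0.17. Over 26979 other genes tested 58.5% were positive, with a median of 0.08. Trp73 had the lowest rho of the 30, -0.58 (permutation p = 0.0656, adjusted p = 0.394), with an r of -0.49 (permutation p = 0.125). Its rho was -0.29 within batch A, where that of Rsph1 was lower (-0.36), and -0.37 without the 2 farthest libraries, where that of Myb was lower (-0.52). Between all 465 pairs of the 31 genes the median rho was 0.07, and 57.2% of pairs were positive. The pairs share libraries and zeros, and these values are a description. The library with the highest value also differed from gene to gene, since WT/R249C replicate 3 was highest for 7 of 31 genes although it had 16 of them at 0.

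A wider list of cilia genes, 157 of whose 161 entries were matched, was examined beside the 31. Of its intraflagellar transport and BBSome genes, which primary cilia of many cell types also use, 24 of 26 had counts in every library. Of its genes for the motile axoneme and airway ciliated cells, 32 of 113 did, and of its regulators 13 of 18. In R249C/R249C against WT/WT 0 of 150 tested genes passed the edgeR test in either direction, and 5 had an unadjusted p under 0.05, 2 higher and 3 lower, beside 3.21% of all genes. In WT/R249C against WT/WT 0 of 150 passed, and 3 had such a p, 2 higher and 1 lower, beside 3.48% of all genes. In R249C/R249C against WT/R249C 0 of 139 passed, and 1 had such a p, in the lower direction, beside 1.08% of all genes. Median log2 fold changes of the wider list were 0.19, 0.24 and 0.07 in these 3 comparisons, beside -0.02, 0.02 and 0.01 over all genes.

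Foxn4, a forkhead regulator of motile cilia genes studied in the frog Xenopus, had no counts in WT/WT. It was at 0.338, 0 and 1.83 CPM in R249C/R249C, at 0.598, 0.135, 1.60, 1.03 and 5.38 CPM in WT/R249C and at 0 in all 3 WT/WT libraries. It was at least 99.0-fold higher in R249C/R249C and at least 240-fold higher in WT/R249C than in WT/WT (edgeR adjusted p = 1 for both). Without R249C/R249C replicate 3 the first bound was 23.2-fold, and without WT/R249C replicate 5 the second was 115-fold. All 5 WT/R249C libraries lay above WT/WT, as was so for 1.1% of all genes tested, and R249C/R249C replicate 2 was at 0. DESeq2 called Foxn4 in both comparisons (adjusted p = 0.0176 and 0.000825). Cdc20b, a gene of the multiciliogenesis locus that also holds Ccno and Mcidas, was at 0 in R249C/R249C and 1.35 ± 1.77 CPM in WT/WT, at least 139-fold lower (edgeR adjusted p = 1, DESeq2 adjusted p = 1.34e-05). Without WT/WT replicate 1 that bound was 36.6-fold. Cdc20b was at 0.929 CPM in WT/R249C replicate 4, so the bound does not hold with that contested library counted as R249C/R249C. DESeq2 also called Ribc2, named after its values were seen, in R249C/R249C against WT/WT. Cfap73 averaged 0.003 CPM in R249C/R249C and 0.832 ± 0.953 CPM in WT/WT, with a log2 fold change of -10.32 ± 4.09 (SE, edgeR adjusted p = 1), which was -6.43 without WT/WT replicate 2.

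Of the other wider genes of smallest p, Cfap221 was at least 167-fold higher in WT/R249C than in WT/WT, where it was at 0 (edgeR adjusted p = 1). Without WT/R249C replicate 3, at 4.81 CPM, that bound was 43.9-fold. WT/R249C replicate 5 was at 0 as well, so the groups overlapped. Zmynd10, a dynein assembly factor, averaged 0.0706 ± 0.131 CPM in WT/R249C and 1.74 ± 2.35 CPM in WT/WT (edgeR adjusted p = 1). In R249C/R249C against WT/R249C the centriolar protein gene Ccp110 averaged 20.4 ± 1.82 CPM in R249C/R249C and 72.6 ± 76.5 CPM in WT/R249C, where its values were 26.9, 29.8 and 160.9 CPM. Zmynd12 averaged 0.0631 ± 0.0443 CPM in R249C/R249C and 1.06 ± 0.791 CPM in WT/R249C, and Ccdc17 5.13 ± 2.73 CPM in R249C/R249C and 10.96 ± 1.92 CPM in WT/R249C. Their log2 fold changes were -1.72 ± 0.71, -3.99 ± 1.33 and -1.06 ± 0.62 (SE, edgeR adjusted p = 1 for each), and that of Ccp110 was -0.49 without WT/R249C replicate 3.

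Genes that mark other cells with cilia or of the airway were examined because axonemal genes are also expressed in sperm. The summed level of 10 male germ cell markers was 1.46 to 8.66 CPM in R249C/R249C, 1.01 to 10.3 CPM in WT/R249C and 4.40 to 11.9 CPM in WT/WT, and the protamine gene Prm2 was at 0 in 8 libraries. The summed level of 8 airway secretory markers was 319.7 to 2050.4 CPM in R249C/R249C, 335.8 to 2336.7 CPM in WT/R249C and 784 to 1988 CPM in WT/WT. The 6 tuft cell markers summed to 125 to 178 CPM in R249C/R249C, 53.3 to 322 CPM in WT/R249C and 157 to 346 CPM in WT/WT. The part of such cells in the ciliated gene levels was not tested.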

How the data were processed

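The authors deposited raw counts of genes in 11 libraries as whole numbers. The tools named in the submitters' processing notes are FastQC, HISAT2 and StringTie with mouse build mm39, without versions. The sources used here do not say how the counts were derived. Columns of batch A alone are named as trimmed, so batches may differ in read trimming. The members, lists and tests were chosen with earlier results of these data known.

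Symbols came from GENCODE names, and CPM used library totals. The counts were tested for differences in R 4.3.3 with edgeR 4.0.16, by quasi-likelihood (TMM, filterByExpr, robust fit, two-sided, Benjamini-Hochberg over all genes tested, threshold 0.05). Both variant genotypes were compared with WT/WT in 1 fit of 11 libraries with batch as a term, and R249C/R249C with WT/R249C in 6 batch A libraries. Alternatives were DESeq2 1.42.0, limma 3.58.1 (voom), other scalings and filters, a replicate block, batch handling, contested labels and leaving out each library. The alternative without the 2 sparsest libraries and the thinning to the smallest total were chosen after the data were seen. The edgeR and correlation steps were also run on simulated data with planted differences or correlations, and the recovery is not reported here.

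Fold changes and p are given for Foxj1, Trp73, Aire, and per comparison the 4 other members and 3 wider genes of smallest unadjusted p. Correlations with Foxj1 used 100000 resamples, two-sided. Promoter windows are RefSeq sequences of another build than the counts.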

Additional observations from a re-analysis of the deposited data

Results flagged for a closer look

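The 31 genes, Aire and 4 summaries were screened in the WT/R249C group, the group of 5 libraries, for a library set apart by Dixon's criterion. Akap14, at 0 in all 5 libraries, could not be screened, and 4 of the 35 measures left met the criterion. For normally distributed values chance alone flags about 1 in 20 such groups, and CPM values with zeros need not follow that rate. Dnah9 was at 25.0 CPM in WT/R249C replicate 3, with the next library at 10.4 CPM. Myb was at 95.7 CPM in the same library, with the next at 34.3 CPM, and the thymocyte markers Rag1, Themis, Dntt and Cd3e were highest there as well, while Cd4, Cd8a and Rag2 were at 0 and Ptprc was at 0.248 CPM. Tekt1 was at 3.59 CPM in WT/R249C replicate 1, with the next library at 0.515 CPM and the rest of the group at 0. Cfap52 was at 0.0352 CPM in WT/R249C replicate 1, and the other 4 libraries of the group were at 0. With 4 libraries at 0 any count meets the criterion, so the chance rate does not apply to Cfap52.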

How the results depend on the processing

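Under edgeR and limma voom settings 0 genes were called in any comparison, and the values that follow are estimates. DESeq2 called 408 genes in R249C/R249C against WT/WT, 276 in WT/R249C against WT/WT and 31 in R249C/R249C against WT/R249C, with 3, 1 and 2 ciliated genes among them, and these counts had no counterpart in the other tools. Of 596 estimates of named genes under alternatives 42 had the opposite sign, in 11 of 30 results, and 9 passed the threshold, all under DESeq2.

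The median log2 fold change of the ciliated genes in R249C/R249C against WT/WT was 1.45 with the replicate block, 1.10 within batch A, 1.09 without the contested libraries and 1.15 with only these groups fitted. In WT/R249C against WT/WT it was 0.58 with voom, 1.13 with the replicate block, 0.98 within batch A, 0.98 without the contested libraries and 0.44 without the 2 sparsest libraries. In R249C/R249C against WT/R249C it was -0.21 with voom, -0.025 with the replicate block and -0.022 with all 11 libraries. Leaving out each library gave -0.18 to 0.72, -0.19 to 0.43 and -0.20 to 0.79 in the 3 comparisons. Genes with counts in every library numbered 8 to 10 when a library was left out, and 13 without the 2 sparsest. The cause of these shifts was not tested.

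In R249C/R249C against WT/WT, Foxj1 was at 0.11 with the block and 0.18 with contested libraries counted as R249C/R249C, Trp73 at 0.10 without a batch term, and Akap14 at -5.69 with contested libraries counted as R249C/R249C. Cfap44 was at 0.48 with voom, 1.24 with the block, 0.51 without a batch term, 1.15 within batch A, 1.15 without contested libraries and 1.15 with only these groups. In WT/R249C against WT/WT, Aire was at -0.025 with voom and -0.14 within batch B, Foxj1 at -0.10 within batch A and -0.11 without contested libraries, and Trp73 at -0.18 with the block, -0.11 within batch A, -0.11 without contested libraries and -0.0061 without the sparsest. Cfap44 was at 1.67 with the block, 0.64 without a batch term, 2.02 within batch A and 2.02 without contested libraries. Tekt1 was at 1.14 with voom, 10.87 with the block, 10.20 within batch A, 10.36 without contested libraries and 0.073 without the sparsest. Where both groups were at 0, as for Akap14 in WT/R249C against WT/WT within batch A, no value was given.

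With each library left out in turn, log2 fold changes spanned -0.14 to 0.52 for Aire in WT/R249C against WT/WT and -0.15 to 0.58 in R249C/R249C against WT/R249C. Foxj1 spanned -0.58 to 0.43, -0.072 to 0.67 and -0.77 to 0.66 in the 3 comparisons. Trp73 spanned -0.77 to 0.013 in R249C/R249C against WT/WT and -0.075 to 0.45 in WT/R249C against WT/WT, and Tekt1 -10.74 to 6.87 there. Deviations of same-numbered libraries correlated at -0.128 to 0.125, so the numbers were not taken to pair the libraries, and the replicate block called 0 genes in each comparison. At these depths 23 of the 31 genes averaged under 5 CPM.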
